A study of Homo sapiens with 21 samples.

Results

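HNRNPK sites in 3'UTRs that were seen in the cytoplasm of both cell lines and in the nucleus of neither are described here. A site was a cluster of PAR-CLIP reads that the authors annotated as 3'UTR in the parental cytoplasmic library. Sites were chosen by where clusters had been called: on the same strand, a member overlapped a cluster of the *KRT19* KO cytoplasmic library by at least 1 nt and overlapped no cluster of either nuclear library. This rule chose 6444 of the 21545 parental cytoplasmic 3'UTR sites, a share of 29.9% (29.3 to 30.5%), in 3254 genes. The members are called cytoplasm-only sites below, a name that states where clusters were called and not where binding is absent.

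Cells of the breast cancer line MDA-MB-231, which is triple-negative, were either parental or carried a CRISPR/Cas9 knockout of *KRT19*, the gene that encodes keratin 19. Both were grown in the same medium, fed 4-thiouridine, irradiated and fractionated, and HNRNPK was precipitated with an antibody labelled as directed against HNRNPK/J. The comparison asks where HNRNPK sits on RNA in each compartment, with and without keratin 19. Each of the 4 conditions had 1 library, so there was no replicate check, no p-value was computed, and every interval is a 95% interval for counting error only.

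HNRNPK is an RNA-binding protein with KH domains that shuttles between nucleus and cytoplasm and is known for its preference for C-rich RNA. In PAR-CLIP, RNA is labelled with 4-thiouridine and crosslinked to protein by light, and a T-to-C change in the reads marks the place of contact. The 3'UTR of an mRNA lies between the stop codon and the poly(A) tail, and it holds many of the elements that set stability, translation and localization of the message.

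The 4 libraries held between 177530 and 201726 clusters and between 3252800 and 6216226 reads in clusters, with a minimum of 5 reads per cluster. 3'UTR clusters took 31.6% of the reads in the parental cytoplasm and 47.4% in the *KRT19* KO cytoplasm, but 5.35% and 5.43% in the nuclei. Nuclear RNAs gave a mixed check of the fractions. The share of reads on NEAT1 was 3.48 and 5.36 times as high in the nucleus as in the cytoplasm of parental and *KRT19* KO cells, and that on KCNQ1OT1 2.02 and 2.9 times. MALAT1, also a nuclear RNA, went the other way, at 0.722 and 0.651 times, so the libraries labelled cytoplasmic also held RNA known as nuclear. Introns held 61.2% of the clusters in the parental cytoplasm and 49.7% in the *KRT19* KO cytoplasm, against 67.3% and 61.8% in the nuclei.

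Sequences of sites are shown first, since their base composition is compared with that of other sites below. The following are the sites with the most parental reads, among those of 30 nt or fewer, of the 5 genes with the most cytoplasm-only sites, each with the corresponding site of the same gene that also had a nuclear cluster, where there was one. They were chosen by reads and not by sequence. Sequences are 5' to 3' on the transcript strand, positions are those of hg19 (GRCh37), T stands for U, and capitals mark 3 or more C in a row.
CBX5 cytoplasm-only, chr12:54630090-54630114, minus strand: atCCCtgCCCtcaaataactttcat
CBX5 also nuclear, chr12:54629572-54629599, minus strand: ctcacacctttttcaatttctcatCCCt
UHMK1 cytoplasm-only, chr1:162497033-162497060, plus strand: atgtttttcactatttttaaattatata
UHMK1 also nuclear, chr1:162497768-162497795, plus strand: gttaccataagCCCttactatcaacaag
TEAD1 cytoplasm-only, chr11:12959309-12959333, plus strand: atgtaattcactaaattatttttta
TEAD1 also nuclear, chr11:12964681-12964709, plus strand: ttttaggagtgattcttatccactccaag
PAWR cytoplasm-only, chr12:79985757-79985779, minus strand: tatagtaaataaaaatttactat
QKI cytoplasm-only, chr6:163993131-163993154, plus strand: ttttaaaacatcattctttaaaag
QKI also nuclear, chr6:163988592-163988621, plus strand: cttcatttttctcctttacaacttttataa

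The cytoplasm-only sites with the highest levels were longer than 30 nt, and a stretch of 30 nt near the position with the highest signal is given for 6 of the 10 described below.
TMED5, chr1:93617826-93617855, minus strand: ttttcaatatacaaattttaaaaatactac
OSTC, chr4:109588685-109588714, plus strand: ttcattaaaatatattccatatctacaact
SSR3, chr3:156259779-156259808, minus strand: tatagtcctaatctttactatccacttcta
PHLDA1, chr12:76421744-76421773, minus strand: tactaaaaaaaaaaaatccataccaaatat
ATP13A3, chr3:194125147-194125176, minus strand: ttttCCCaacatatatttacaaatttacca
SAR1A, chr10:71910781-71910810, minus strand: tgatcttaatctatattctaCCCttataat
The stretches of ATP13A3 and SAR1A held 3 C in a row. Over their full length 5 of the 10 strongest sites held CCC, those of TMED5, TRAM1, PTP4A1, ATP13A3 and SAR1A, so a stretch without it does not stand for the whole site.

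Cytoplasm-only sites were, on the whole, sites of low to moderate depth. Reads in the parental library ranged from 5 to 2720 with a median of 22 (quartiles 11 and 49), and those in the *KRT19* KO library from 5 to 8131 with a median of 34 (quartiles 16 and 83). The members together held 20.6% of the 3'UTR reads of the parental cytoplasm. In 693 members both cytoplasmic libraries had at least 100 reads, and 359 members (5.57%) rested on 1 unique read in the parental library. Sites of both cytoplasms that also overlapped a nuclear cluster, 3894 in all and called also nuclear here, were fewer and deeper, with a median of 87 parental reads and 60.8% of the 3'UTR reads. A further 9817 parental sites overlapped none of the other libraries, and 1390 overlapped a nuclear but no *KRT19* KO cytoplasmic cluster.

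Of all 10338 3'UTR sites of both cytoplasms, 62.3% (61.4 to 63.3%) had no nuclear cluster, and this share fell with depth. It was 86.2% (84.3 to 87.8%) at 5 to 9 parental reads and 70.1% (68.4 to 71.8%) at 20 to 49. It was 35.2% (33.1 to 37.3%) at 100 to 499 reads and 13.6% (11.1 to 16.6%) at 500 or more, where 80 of 588 sites were cytoplasm-only. At 50 or more parental reads the share was 38.9%. If a site had the same share of the reads in the nucleus as in the cytoplasm of its cell line, 5236 members (81.3%) would be at 5 or more reads in both nuclear libraries. With the libraries scaled by their 3'UTR reads instead, of which the nuclei held far fewer, 1194 members (18.5%) would be. Of the also nuclear sites, 3710 (95.3%) would be with the first scaling and 2199 (56.5%) with the second. For most members, a missing nuclear cluster and a low yield of 3'UTR reads in the nuclear library thus cannot be told apart. Also nuclear sites themselves were lower in the nucleus in RPM, the reads of a site per 1000000 reads in all clusters of its library. The median log2 ratio of nuclear to cytoplasmic RPM was -1.70 in parental (2477 sites) and -2.09 in *KRT19* KO cells (2571 sites). Scaling by 3'UTR reads would raise both medians and turn their sign.

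**Figure D1:**
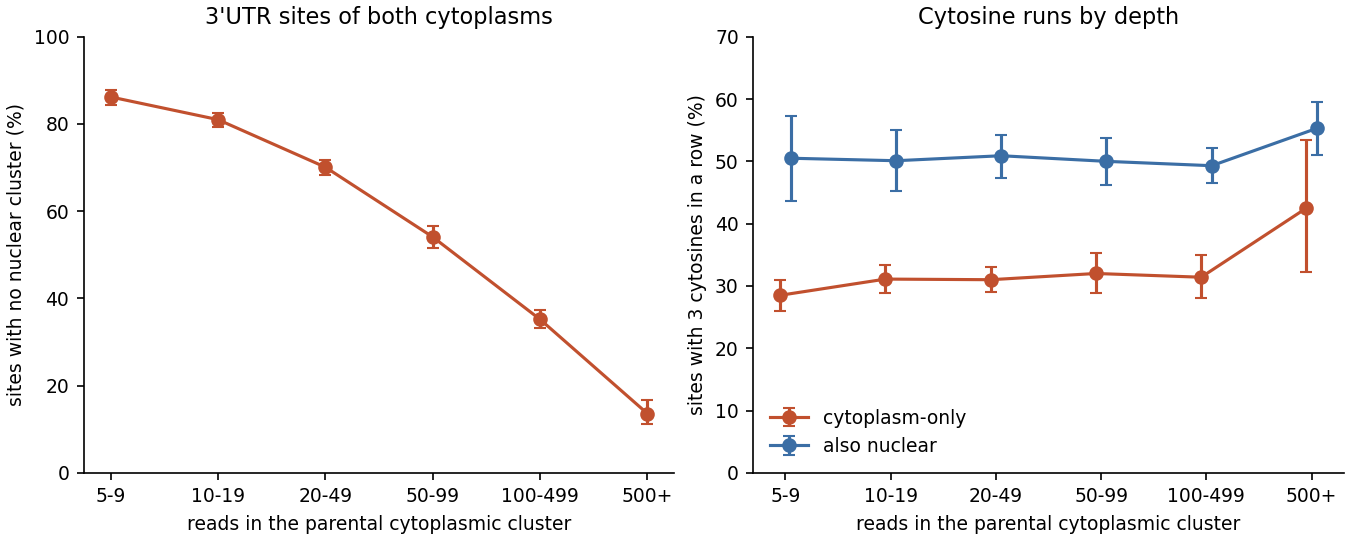
The left panel plots the share of 3'UTR sites of both cytoplasms with no nuclear cluster by the number of reads in the parental cytoplasmic cluster, and the right panel the share of sites with 3 C in a row in the cytoplasm-only and the also nuclear sites of the same depth. Bars are 95% Wilson intervals. The left share falls from 86.2% to 13.6%. On the right the share is lower in cytoplasm-only sites at each depth, with 31% against 50.9% at 20 to 49 reads. At 500 or more reads the bars overlap, with 42.5% (32.3 to 53.4%) against 55.3% (51 to 59.6%).

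At its edges the rule turned on single bases for few sites. The longest overlap with a *KRT19* KO cytoplasmic cluster had a median of 27 nt, and for 19 members, with a median of 9 parental reads, it was 1 nt. Just outside, 30 sites with no nuclear cluster touched a *KRT19* KO cytoplasmic cluster without overlap and had a median of 11.5 reads. Among members, 10 touched a nuclear cluster without overlap, and 4 also nuclear sites, with a median of 16 reads, overlapped one by 1 nt. A nuclear cluster lay within 50 nt of 755 members (11.7%) and within 500 nt of 3689 (57.2%).

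Most genes with cytoplasm-only sites had nuclear clusters elsewhere. Of the 3254 genes, 3167 (97.3%) had a nuclear cluster of some kind, 3015 (92.7%) one in an intron, and 2444 (75.1%) one in a 3'UTR. A total of 87 genes (2.67%) had none. Over all 6340 genes with a parental cytoplasmic 3'UTR site, the shares were 93.2%, 87.7% and 67.7%, so a nuclear cluster is common to most genes bound in a cytoplasmic 3'UTR. An also nuclear 3'UTR site accompanied the cytoplasm-only sites in 1448 genes (44.5%).

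Cytoplasm-only sites were poorer in C than also nuclear sites. C made up 22.4% of the bases of the former and 27.0% of the latter, while U made up 38.1% of both, A 30.3% and 28.6%, and G 9.18% and 6.24%. The equal share of U held over all depths together. At matched depth U was higher in the members, with 34.7% against 32.6% at 5 to 9 reads and 41.4% against 39.1% at 100 to 499. The smallest such difference was 36.7% against 36.6%, at 10 to 19 reads. The median site had 21.2% C (quartiles 14.7 and 29%) if cytoplasm-only and 25.7% (18.2 and 36.0%) if also nuclear, so the classes overlapped widely. Genome sequence 100 nt to either side of the same sites had 18.7% and 19.5% C, and the 3'UTRs that hold them a median of 17.9% and 18.6%. The members were thus richer in C than their surroundings, but by less than the also nuclear sites.

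The trinucleotide CCC, searched on the transcript strand, was in 1987 cytoplasm-only sites, a share of 30.8% (29.7 to 32.0%). It was in 1974 also nuclear sites, a share of 50.7% (49.1 to 52.3%), and the difference was -19.9 percentage points (-21.8 to -17.9). The difference was present at each depth. It was -22.0 points (-29.3 to -14.7) at 5 to 9 reads, -19.8 (-23.9 to -15.8) at 20 to 49 and -17.9 (-22.2 to -13.5) at 100 to 499. At 500 or more reads it was -12.8 points (-23.9 to -1.05), from 34 of 80 and 281 of 508 sites. Sites of 1 gene are not independent, and the intervals do not cover this. With 1 site per gene the difference was -20.6 points, and in windows of 31 nt around the centre of each site, chosen after seeing the data, it was -17.5 points.

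The share rose with the number of nuclei in which a site was seen. CCC was in 46.3% (44.5 to 48.2%) of the 2740 sites with a cluster in 1 nucleus and in 61.1% (58.2 to 63.9%) of the 1154 sites with a cluster in both. Sites seen in the parental nucleus alone had 44.8% (42.2 to 47.5%), and those in the *KRT19* KO nucleus alone 47.7% (45.1 to 50.3%). Of the parental nuclear 3'UTR clusters that overlapped neither cytoplasm, 45.4% (43.6 to 47.2%) had CCC, at a median of 10 reads. Parental cytoplasmic sites that overlapped no other library had 29.7% (28.8 to 30.7%), at the same median depth. Read from the *KRT19* KO clusters that overlapped a parental cytoplasmic one, the shares were 32.9% (31.7 to 34%) of 6344 without and 52.6% (51.0 to 54.1%) of 3919 with a nuclear cluster. These are largely the same places, with a median overlap of 27 nt for members. They hold mostly the same bases and are no independent repeat.

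Longer C runs differed in the same direction. CCCC was in 10.9% (10.2 to 11.7%) of cytoplasm-only and 22.7% (21.4 to 24.0%) of also nuclear sites, and TCCC in 21.1% and 39.9%. No more than 1 C in a row occurred in 28.3% of the members against 14.2%, and 40 members (0.621%) had no C at all. Among 290 words of 5 nt with at least 200 occurrences in both classes together, the 10 with the lowest ratio of members to also nuclear sites each held CCC or CC and nothing but C, T and A. The lowest was CCCCT, with 2.02 per 1000 words in members and 4.40 in also nuclear sites, a log2 ratio of -1.12. The 10 highest words each held G. TGTAA led with 0.953 and 0.374 per 1000 words, a log2 ratio of 1.32, followed by TGTAT at 1.16. Words were counted over all depths together, and the part of depth in these ratios was not tested.

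U-rich and A/U-rich elements did not separate the classes as clearly. TTTT was in 43.8% (42.6 to 45.0%) of cytoplasm-only and 47.5% (46.0 to 49.1%) of also nuclear sites, a difference of -3.76 points that turned at matched depth. At 100 to 499 reads it was 9.93 points higher in members (5.44 to 14.3), and at 5 to 9 reads 7.72 points higher (0.913 to 13.7). ATTTA, the core of AU-rich elements, was in 15% and 15.8%, a difference of -0.746 points (-2.20 to 0.679) over all depths together. At 20 to 49 reads ATTTA was 5.17 points higher in members (2.38 to 7.74). At 100 to 499 reads it was 5.77 points higher (2.09 to 9.58). The difference was -0.9 points (-4.94 to 3.09) at 50 to 99 reads. At the remaining depths ATTTA was higher in members, but the intervals included both signs. The poly(A) signal AATAAA was in 4.92% and 5.44%, a difference of -0.525 points (-1.43 to 0.345). TGTANATA, the word bound by Pumilio proteins, was rare, in 66 members (1.02%) and 22 also nuclear sites (0.565%). A match is a description of the letters in a site, and nothing was measured here on the proteins known to bind these words.

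**Figure D2:**
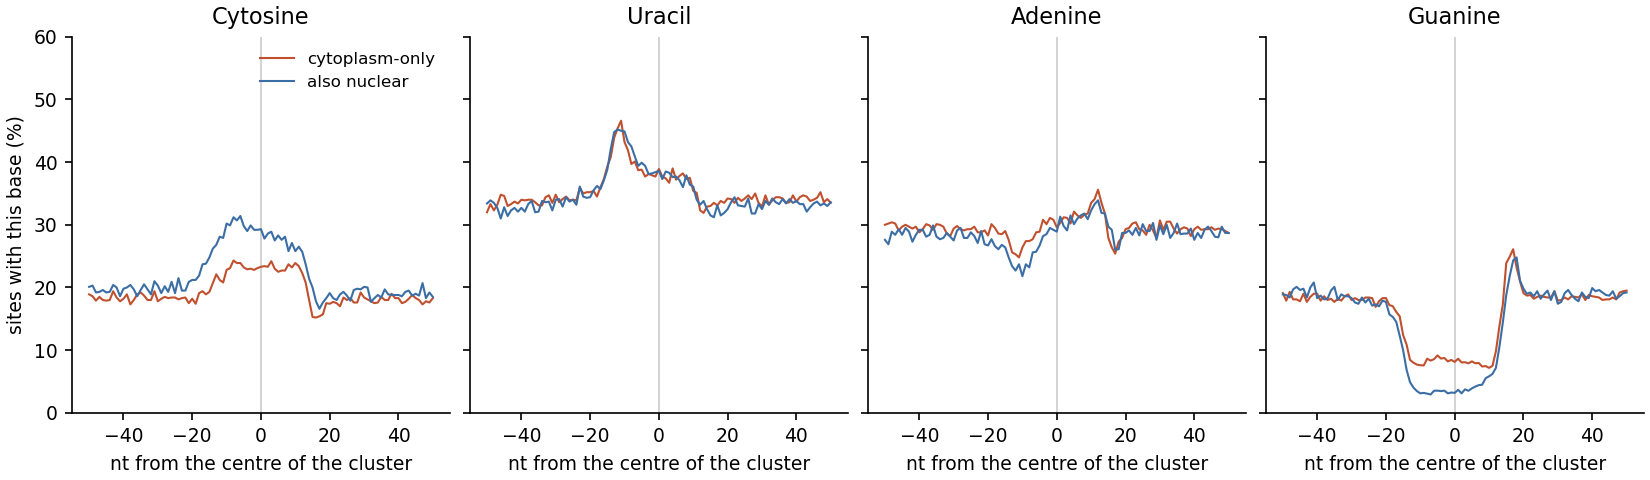
Share of sites with each base at each distance from the centre of the cluster, in the genome sequence on the transcript strand, for 6444 cytoplasm-only and 3894 also nuclear sites. Within 10 nt of the centre C averaged 23.3% in the former and 28.8% in the latter, against 18.2% and 19.3% at 40 to 50 nt, while the curves of U lie close together.

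Within 10 nt of the centre of a site G averaged 8.13% in cytoplasm-only and 3.73% in also nuclear sites, against 18.5% and 19.2% at 40 to 50 nt. By the methods, RNA was cut with RNase T1, which cleaves after G, and its part in these values was not tested. The difference in G shrank with depth, from 12.4% against 9.57% at 5 to 9 reads to 6.11% against 5.37% at 100 to 499. At 500 or more reads G was 5.71% against 5.9%. C differed at each of these depths, with 23.1% against 31.7%, 20.9% against 26.2% and 20.4% against 23.7%. In cytoplasm-only sites, 55.2% of parental and 56.2% of *KRT19* KO reads had a T-to-C change. For also nuclear sites the shares were 51.4% and 54.4%. Clusters were called from T-to-C changes, so sites of both classes had to carry them, and these shares do not test crosslinking.

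Genes with both kinds of site allowed a comparison inside the same transcripts. In 893 of 1448 such genes (61.7%) the mean C content was lower in the cytoplasm-only sites, in 549 it was higher and in 6 equal, with a median difference of -3.26 percentage points (quartiles -11.5 and 3.79). With at least 3 sites of each kind, 119 of 187 genes (63.6%) had the lower value in cytoplasm-only sites, and the median C content was 20.6% and 24.7%.

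Along the 3'UTR, cytoplasm-only and also nuclear sites had similar median positions. Of the members, 6428 (99.8%) could be placed in an annotated 3'UTR, with a median length of 3349 nt. On a scale from 0 at the stop codon to 1 at the end of the longest such 3'UTR, their median position was 0.429 (quartiles 0.215 and 0.677). Also nuclear sites were at 0.412 (0.193 and 0.673). The median member lay 1224 nt from the stop codon and 1631 nt from the transcript end. The first 100 nt held 3.31% (2.90 to 3.78%) of the members and 4.65% (4.03 to 5.36%) of the also nuclear sites. The last 100 nt, which hold the poly(A) signal of such a transcript, had 2.77% (2.4 to 3.2%) and 3.05% (2.55 to 3.64%). With the shortest annotated 3'UTR in place of the longest, the median position of the members was 0.518, so the absolute value depends on which transcript end the cells use.

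**Figure D3:**
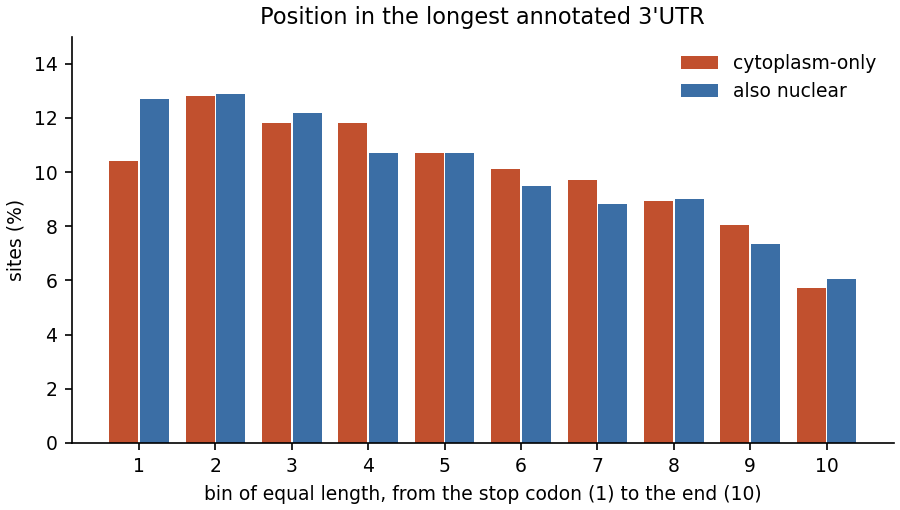
Share of cytoplasm-only and also nuclear sites in each of 10 bins of equal length along the longest annotated 3'UTR that holds them, from the stop codon to the end. Members peak in bin 2 with 12.8% and fall to 5.72% in bin 10, and also nuclear sites fall from 12.9% to 6.07% over the same bins.

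Of the 3254 genes, 1760 (54.1%) had 1 cytoplasm-only site, 1261 had 2 to 4, and 233 had 5 or more, and these last held 23.2% of all members. Another member lay within 100 nt of 1037 members (16.1%).

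The gene with the most was CBX5, which encodes the heterochromatin protein HP1 alpha, with 19 cytoplasm-only and 10 also nuclear sites in a 3'UTR of 10816 nt. Its members held 5 to 246 parental reads each and 652 in all, against 2183 in *KRT19* KO cells, each *KRT19* KO cluster being counted once for a gene. The 10 also nuclear sites of CBX5 held 91 parental and 251 *KRT19* KO nuclear reads. CCC was in 7 of the 19 and 5 of the 10 sites. The strongest member lay 9785 nt from the stop codon, with 246 parental and 921 *KRT19* KO reads and none in a nuclear cluster, although it was rich in C, at 43.2%. The strongest also nuclear site, 1171 nt from the stop codon, had 886 and 2064 cytoplasmic reads and 46 and 49 nuclear reads.

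**Figure D4:**
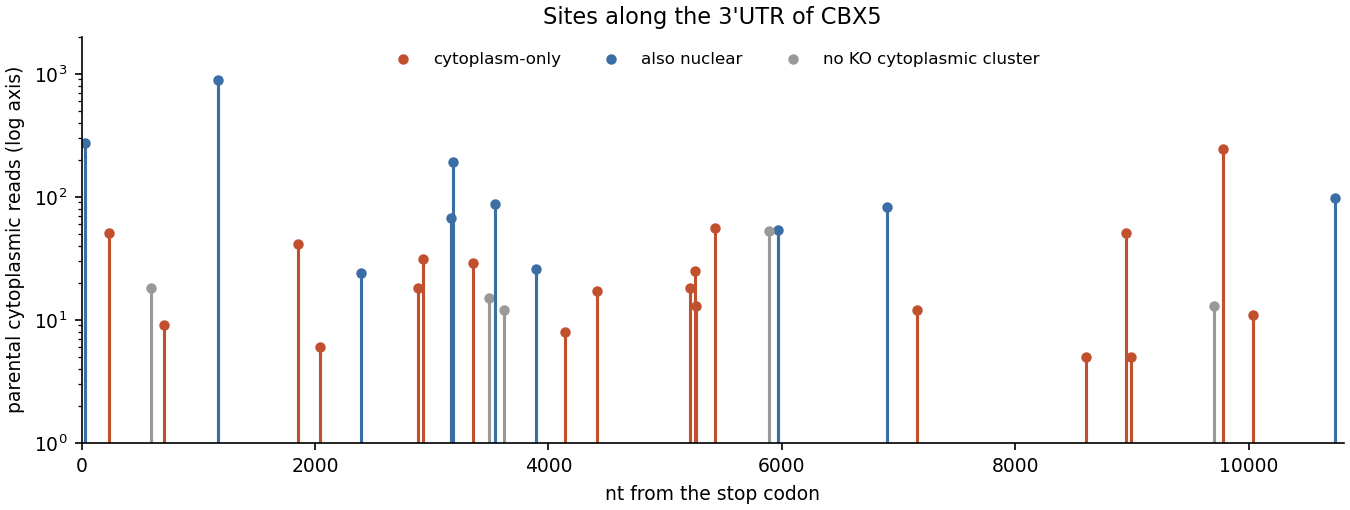
Sites of the parental cytoplasmic library along the 3'UTR of CBX5, by nt from the stop codon, with their parental cytoplasmic reads on a log axis. The 19 cytoplasm-only sites are spread over the 3'UTR between the 10 also nuclear sites and reach 246 reads, while the strongest also nuclear site has 886.

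UHMK1, a kinase with a U2AF homology motif, had 15 cytoplasm-only and 9 also nuclear sites, and its members held 1042 parental and 1841 *KRT19* KO reads. TEAD1, the transcription factor at the end of the Hippo pathway, had 14 and 9, with 593 and 1332 reads in the members. PAWR, a pro-apoptotic protein, had 13 and 6. Its members held 936 and 1444 reads. QKI, itself an RNA-binding protein of the STAR family, also had 13 and 6, with 484 and 1062 reads, and CCC was in 2 of the 13. The other 5 genes of this group had 12 members each. BMPR2, a type II receptor for bone morphogenetic proteins, was the 1 gene of the 10 with fewer RPM in the *KRT19* KO cytoplasm, 241 against 296, a log2 ratio of -0.30. PAWR, at 0.46 over its members, was also under the median log2 ratio of 0.54 over all 3'UTR sites given below. CDK6, a kinase of the G1 phase, had 190 and 293 RPM over its members, and INO80D, a subunit of the INO80 chromatin remodeller, had 102 and 153. NUCKS1, a chromatin-associated protein, had 95.8 and 331, and PURB, which binds single-stranded nucleic acids, had 54.4 and 190, a log2 ratio of 1.80 that was the highest of the 10. CCC was in between 15.4% and 36.8% of the members of each of the 10 genes.

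The 10 strongest cytoplasm-only sites each had more than 1000 reads in each cytoplasm and no nuclear cluster. The first was in TMED5, a cargo receptor of the early secretory pathway, at chr1:93617803-93617855 on the minus strand, 2380 nt into a 3'UTR of 4931 nt. Parental reads numbered 2720 and *KRT19* KO reads 4677, or 490 and 752 RPM. T-to-C changes were in 32.2% and 36.3% of these reads, and C made up 18.9% of its bases. TRAM1, a protein of the translocon of the endoplasmic reticulum, followed with 2460 and 3739 reads at a site with 20.5% C. OSTC, a subunit of the oligosaccharyltransferase, had 2362 and 5194 reads at chr4:109588685-109588730 on the plus strand, 267 nt into a 3'UTR of 558 nt. SSR3, a subunit of the translocon-associated protein complex, had 2220 and 2619 reads in a site of 50 nt.

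The next was PTP4A1, a prenylated tyrosine phosphatase, with 2176 and 8131 reads, the most of any member in the *KRT19* KO library. PHLDA1, a protein with a pleckstrin homology-like domain, had 2100 and 5817 reads, and C made up 13.6% of its site. ATP13A3, a transporter ATPase, had 2024 and 1710 reads. On the scale of all reads in clusters it was the 1 site of these 10 at a lower level in *KRT19* KO cells, 275 against 365 RPM. CREBL2, a bZIP protein, had 1516 and 1741 reads at a site with 11.9% C. SRSF2, a splicing factor of the SR family, had 1414 and 1779 reads. SAR1A, the small GTPase of COPII vesicles, had 1324 and 3408. The log2 ratios of TRAM1 (0.44), SSR3 (0.08), CREBL2 (0.04) and SRSF2 (0.17) were positive. They lay under the median of 0.54 over all 3'UTR sites given below, so these sites were lower relative to that median. C made up between 11.9% and 26.6% of the bases of these 10 sites. Each had at least 10 conversion locations, and none rested on few copies, with at least 384 unique reads in the parental library.

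Between the cytoplasms, levels of cytoplasm-only sites were compared as RPM for the 3627 members with at least 50 reads in both libraries together. Reads at a site rise with the amount of the mRNA as well as with binding, and mRNA levels were not analysed here. The median member had a log2 ratio, *KRT19* KO over parental, of 0.61 (quartiles -0.11 and 1.37). At least 2-fold higher in *KRT19* KO cells were 1281 members (35.3%), against 32.2% of all 7003 3'UTR sites of both cytoplasms. At least 2-fold lower were 240 members (6.62%), against 6.31%. These shares are close to those of all such sites, of which the members are themselves a part. Of the also nuclear sites, 28.9% were at least 2-fold higher and 5.98% at least 2-fold lower. The median over all 7003 sites was itself shifted by 0.54 on the log2 scale. Relative to that median, the members were at 0.07 and the also nuclear sites, at 0.46 before, were at -0.08, with 758 members (20.9%) at least 2-fold higher and 571 (15.7%) at least 2-fold lower. For the also nuclear sites these shares were 13.6% and 15.8%. Levels given as higher or lower below, and those of the genes and sites above, are on the scale of all reads in clusters. A log2 ratio between 0 and 0.54 changes sign on the other scale. The larger share of 3'UTR reads in the *KRT19* KO library moves with this result, and its part was not tested.

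**Figure D5:**
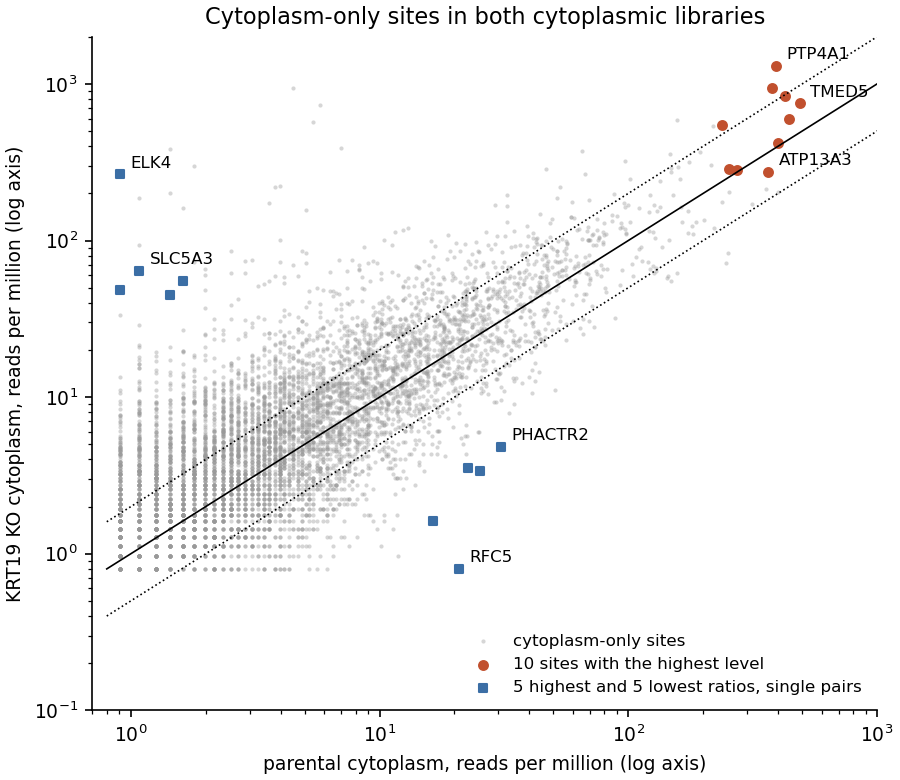
RPM of each cytoplasm-only site in the parental and the *KRT19* KO cytoplasmic library, both on log axes, with lines at equal levels and at 2-fold differences. Most sites lie between or above the lines, the 10 strongest at 238 to 490 RPM in parental cells, and the single pairs with the highest and lowest ratios stand far from the diagonal at low reads in 1 of the libraries.

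Members rich in C had higher ratios. At 25% C or more the median log2 ratio was 0.84 (quartiles 0.07 and 1.64, 1330 sites), at 15 to under 25% it was 0.55 (-0.12 and 1.26, 1368 sites), and under 15% it was 0.42 (-0.27 and 1.08, 929 sites). Of the first, 44% were at least 2-fold higher, and of the last 26.9%. Also nuclear sites followed the same order, with medians of 0.56, 0.45 and 0.22. The quartiles of these groups overlapped, and each value compares 1 library with 1 library.

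Single sites with the most extreme ratios had few reads on 1 side. Of 2095 members with at least 100 reads in both libraries together, the highest ratio was at ELK4, an ETS transcription factor, with 5 parental and 1648 *KRT19* KO reads, a ratio of 294 (126 to 908) after scaling. Next were sites in SLC39A14, a zinc transporter, PHLDA1, CLOCK, a circadian transcription factor, and HDGF, a growth factor, with ratios of 267, 208, 174 and 167. In each of these 4 the *KRT19* KO cluster also covered a stronger parental cluster. With the reads of both parental clusters together, the ratios were 1.94, 2.44, 1.80 and 2.14, so these 4 values rest on how the reads were divided into clusters. Among members where 1 parental and 1 *KRT19* KO cluster overlapped and no other, a restriction chosen after seeing the data, the next highest were in SLC5A3, an inositol transporter, with 6 and 400 reads, and in CBX5, with 5 and 299 reads. At SLC5A3 and CBX5 the parental side rested on 1 unique read each, and at ELK4 on 2.

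At the low end, a site of 45 nt in RFC5, a subunit of the clamp loader in DNA replication, had 116 parental and 5 *KRT19* KO reads, a log2 ratio of -4.70. Its *KRT19* KO side rested on 1 unique read. The site in ZFC3H1, a cofactor of nuclear RNA decay, had 91 and 10 reads. NR3C1, the glucocorticoid receptor, had 141 and 21 reads, 0.133-fold (0.0798 to 0.211). TMBIM6, an inhibitor of cell death in the endoplasmic reticulum, had 126 and 22, and PHACTR2, a regulator of phosphatase and actin, had 171 and 30. None of these 5 sites shared its clusters with another site.

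Gene lists were compared by the share of their 3'UTR sites of both cytoplasms that were cytoplasm-only, against 62.3% over all genes. The shares lay between 52.5% for hnRNP and poly-C binding proteins (32 of 61 sites) and 68.4% (60.2 to 75.6%) for the TMEM family (93 of 136 sites). The interval of each list held 62.3%. At 50 or more reads, where the share over all genes was 38.9%, the secretory pathway had 20 of 51 sites (39.2%), translation initiation 12 of 25 (48.0%), the TMEM family 23 of 52 (44.2%) and RAB GTPases 21 of 51 (41.2%). Actin cytoskeleton had 10 of 20 (50%) and ubiquitin-specific proteases 4 of 9 (44.4%). Extracellular matrix and adhesion had 5 of 13 (38.5%), the ZNF family 28 of 75 (37.3%) and immediate early genes 5 of 16 (31.2%). Solute carriers had 26 of 86 (30.2%) and cell cycle genes 7 of 26 (26.9%). Cytosolic ribosomal proteins had 1 of 7, SR factors 3 of 16 (18.8%) and hnRNP and poly-C binding proteins 6 of 29 (20.7%).

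Secretory pathway genes had 61 cytoplasm-only sites in 21 genes. TMED5 had 8 of them, SSR1, another subunit of the translocon-associated protein complex, also 8, and TMED2, a further p24 cargo receptor, 6. Of the 43 sites with enough reads, 22 were at least 2-fold higher and 3 at least 2-fold lower in *KRT19* KO cells, with a median log2 ratio of 1.05. These are 51.2% and 6.98%, against 35.3% and 6.62% of all members. The strongest SSR1 site had 181 and 813 reads, a ratio of 4.01 after scaling, that of TMED5 2720 and 4677, a ratio of 1.54, and that of TMED2 94 and 93, a ratio of 0.884 (0.656 to 1.19). Actin cytoskeleton genes were similar, with a median of 1.11, 8 of 16 higher (50%) and 1 lower. In ARPC5, a subunit of the Arp2/3 complex, the strongest site had 69 and 317 reads, a ratio of 4.1. In MSN, which links actin to the membrane, it had 109 and 237, a ratio of 1.94, and in TPM4, a tropomyosin, 523 and 763, a ratio of 1.3. Genes of the TMEM family had a median of -0.17, with 6 of 47 sites higher (12.8%) and 7 lower (14.9%). Those of the extracellular matrix and adhesion had 0.08, with 0 of 10 higher and 2 lower, and THBS1, a matrix glycoprotein, had 254 and 204 reads at its strongest site. The median over all members was 0.61. These lists rest on few sites, and nothing here tests whether they differ from the other members.

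Cell cycle genes had 40 members in 16 genes, 12 of them in CDK6, whose strongest site had 672 parental and 949 *KRT19* KO reads. Of 21 with enough reads, 10 were higher (47.6%) and 0 lower, against 35.3% and 6.62% of all members.

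The share of sites with CCC in each list stands against 30.8% of all cytoplasm-only and 50.7% of all also nuclear sites. Of the 40 cell cycle members, 17.5% had CCC, against 56.5% of the 23 also nuclear sites of the same list. Immediate early genes had 33 members and showed 36.4% against 61.1% of 18, and SR factors had 19 members with 5.26% against 50% of 14. Both of these lists rest on few sites. Members of zinc finger genes of the ZNF family, 153 in 96 genes, had 24.2% against 50% of 108. RAB GTPases, 72 members in 26 genes, had 43.1% against 52.5% of 40. Solute carriers, 111 members in 60 genes, had 31.5% against 52.3% of 86, and the TMEM family 30.1% against 44.2% of 43. For the extracellular matrix and adhesion list, the values were 52.9% of 17 members and 50% of 10 also nuclear sites, and for ribosomal proteins 54.5% of 11 and 37.5% of 8, too few sites to read an order from. Translation initiation (45 members, 31.1% against 41.7% of 24), actin cytoskeleton (20, 50% against 68.8% of 16), secretory pathway (27.9% against 39.5% of 38), hnRNP and poly-C binding proteins (34.4% against 37.9% of 29) and ubiquitin-specific proteases (18, 11.1% against 63.6% of 11) had the lower share in the members, also from few sites. No order is read from these lists either.

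The gene of the protein itself, HNRNPK, had 4 parental cytoplasmic 3'UTR sites, of which 2 were cytoplasm-only and none also nuclear. Elsewhere in its 3'UTR, the parental nucleus had 2 clusters and the *KRT19* KO nucleus 1. That at chr9:86583530-86583555, 770 nt into the 3'UTR, had 84 parental and 115 *KRT19* KO reads and 34.6% C. The other, at chr9:86584090-86584121, had 17 and 56 reads. EIF4E, the cap-binding initiation factor, had 1 of 53 and 188 reads, a ratio of 3.17 (2.32 to 4.38), and 1 also nuclear site. MDM2, a ubiquitin ligase, had 1 with 11 and 26 reads and 3 also nuclear sites. MYC, a transcription factor, had 1 with 27 and 55 reads, and 2 clusters in its 3'UTR in the *KRT19* KO nucleus that did not overlap it. SRC, a tyrosine kinase, had 1 parental 3'UTR site, which no *KRT19* KO cytoplasmic cluster overlapped. KRT19, KRT8 and KRT18, which encode the simple-epithelial keratins, had no 3'UTR cluster in any of the 4 libraries, so the knockout could not be checked from these sites.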

How the data were processed

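HNRNPK PAR-CLIP was measured in 1 library each from the cytoplasm and nucleus of parental and *KRT19* KO MDA-MB-231 cells. According to the paper's methods, the authors collapsed identical reads, removed adapters and molecular identifiers, aligned the rest and ran PARalyzer within PARpipe to define clusters. The submitters' processing notes name another build, hg38, but the sequences of all 6444 members equalled GRCh37 (hg19) at their positions. The authors deposited for each cluster its raw counts: all reads, unique reads, T-to-C reads and positions with conversions. Also deposited were the fraction of T-to-C reads, the mode score and a log10 conversion specificity, which were not used. Members were found by overlap on the same strand. Motifs were searched in the deposited sequences, 3'UTR positions came from GENCODE release 44 lifted to GRCh37, and levels were scaled to reads in all clusters. Shares have Wilson, differences Newcombe and ratios of reads exact binomial intervals, at 95%. Named genes were the 10 with the most members, the 10 strongest sites, the 5 highest and 5 lowest ratios, genes of interest to the study, and up to 3 genes of each list. The members, lists and named genes were chosen with earlier results of these data known. A gene and a gene list covered by these rules are not reported here. The overlap and motif functions were tested on simulated data. The RNA-seq samples were not analysed here. Python 3.11.15, numpy 2.4.6, pandas 2.3.3, scipy 1.17.1, pysam 0.24.0 and matplotlib 3.10.9 were used.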

Additional observations from a re-analysis of the deposited data

How the results depend on the processing

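With 1 library per condition, a share or median counted as moved outside its 95% interval, and a number of sites beyond a factor of 1.5. Of 44 planned settings, 21 did not move their result and 23 did, and of 9 chosen after seeing the data 3 did. The median of the members and their difference in CCC kept their sign under these settings, while the median of the also nuclear sites went from 0.46 to -0.08 relative to all 3'UTR sites. The number of cytoplasm-only sites stayed between 4838 and 6391 under the 6 alternatives. The share of 3'UTR sites of both cytoplasms without a nuclear cluster moved to 64.0% with overlap of 50% of the parental cluster, 55.1% with no nuclear cluster within 50 nt, 58.4% at 10 or more reads, 57.2% at 2 or more conversion locations and 61.2% at 2 or more unique reads. The share of members with CCC moved to 32.7% with 1 site per gene, 27.7% in 31 nt around the mode position and 32.9% in *KRT19* KO clusters, and the difference to also nuclear sites to -15.5 points around the mode, which was the first base of the cluster for 46.2% of the members, and to -17.5 points around the centre. At 50 or more reads it was -18.5 points, and over bins of depth -19.7. Scaling by 3'UTR reads gave a median log2 ratio of *KRT19* KO to parental cytoplasm of 0.02, with 718 members 2-fold higher and 605 lower, and 1194 members expected at 5 or more reads in both nuclei. With the median of all 3'UTR sites set to 1 the values were 0.07, 758 and 571. The median was 0.50 with unique reads, 0.56 with single pairs of clusters, 0.42 with no minimum of reads, when 542 members were lower, and 0.55 with the largest cluster of each library left out, which held 5.83% of the parental cytoplasmic reads. At 100 or more reads, 746 were higher and 112 lower. A limit of 10 expected nuclear reads left 3436 members. The median position moved to 0.518 with the shortest 3'UTR. No paired analysis was possible because the PAR-CLIP data have 1 library per condition. Depth limits the rule itself, since a site under 5 reads is in no file.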
